A study of Homo sapiens with 2 samples.

Results

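Promoter contacts under 50 kb are pairs of chromatin fragments on the same chromosome, at least 1 of them carrying a captured promoter, whose midpoints lie less than 50 kb apart. They were taken from the interaction lists of promoter-capture Hi-C of K562 cells as unordered fragment pairs found in either list, leaving out chromosomes 9, 13 and 22. Of 138160 interactions in both lists together, 8852 met this rule. Contacts of 50 to 500 kb numbered 84647 and contacts of 500 kb or more 23680 on the same chromosomes.

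K562 is an established human chronic myelogenous leukaemia line that carries the BCR-ABL1 fusion kinase, and both libraries came from this line only. Ponatinib inhibits the ABL kinase, and 1 library was made after 24 h at 100 nM of it. The other was made after the vehicle DMSO, from an equal number of cells grown in the same medium. The comparison asks which promoter contacts are listed after kinase inhibition. With 1 library per treatment no test of the treatment exists, so every difference below lacks a replicate check. The files hold no read counts, so depth is unknown. The ponatinib list held 91305 interactions in all, against 84049 in the DMSO list. Contacts between chromosomes 9 and 22, where the BCR-ABL1 rearrangement lies, numbered 1781 in ponatinib and 1654 in DMSO. Intervals are 95% intervals, which cover counting error only and treat contacts as independent. Neighbouring fragments are not independent, which makes these intervals too narrow. Ratios and shares that set the libraries against each other count a contact of both lists once in each. Ignoring that pairing makes their intervals too wide, and the net error of these is unknown.

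In Hi-C, fragments that lie close together in the nucleus are crosslinked and ligated, and the frequency of ligation falls steeply with distance along the chromosome. Callers of interactions usually score a pair against what its distance would give, so a list is not a record of all pairs that touch. Short promoter contacts in mammalian cells join a promoter to its own gene body, to nearby enhancers and to neighbouring promoters. In erythroid cells, the best known enhancer contact is that of the beta-globin genes with their locus control region.

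The promoters below carry the contacts that the results turn on. DHX57 and ARHGEF33 lie at the highest scoring short contact of both lists. CCNB1 had among the largest gains in number in ponatinib, GABPA shared the largest loss, and WSB1 had the most short contacts of any gene. TAL1 is an erythroid transcription factor gene. Each sequence is the RefSeq promoter window of GRCh38.p14, from 250 bases before to 50 bases after the start site, 5′ to 3′ on the gene's strand. Capitals mark matches, on either strand, to the GC box GGGCGG, the CCAAT box CCAAT, the GATA site AGATAA or TGATAA, and the ETS site CCGGAAG. Overlapping matches count separately. The windows lie at chr2:38875885-38876184, minus strand, at chr2:38889625-38889924, plus strand, at chr5:69166900-69167199, plus strand, at chr21:25734722-25735021, plus strand, at chr17:27293864-27294163, plus strand, and at chr1:47232286-47232585, minus strand.
DHX57: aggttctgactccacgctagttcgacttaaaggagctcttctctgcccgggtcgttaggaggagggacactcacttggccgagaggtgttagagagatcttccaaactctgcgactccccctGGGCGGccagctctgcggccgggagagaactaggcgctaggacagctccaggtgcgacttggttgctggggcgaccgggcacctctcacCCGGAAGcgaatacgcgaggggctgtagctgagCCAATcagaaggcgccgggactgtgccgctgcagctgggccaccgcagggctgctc
ARHGEF33: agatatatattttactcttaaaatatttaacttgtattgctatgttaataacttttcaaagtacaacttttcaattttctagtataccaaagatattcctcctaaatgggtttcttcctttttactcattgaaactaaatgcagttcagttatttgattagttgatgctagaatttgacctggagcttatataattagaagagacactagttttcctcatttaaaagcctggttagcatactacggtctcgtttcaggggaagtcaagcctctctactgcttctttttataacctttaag
CCNB1: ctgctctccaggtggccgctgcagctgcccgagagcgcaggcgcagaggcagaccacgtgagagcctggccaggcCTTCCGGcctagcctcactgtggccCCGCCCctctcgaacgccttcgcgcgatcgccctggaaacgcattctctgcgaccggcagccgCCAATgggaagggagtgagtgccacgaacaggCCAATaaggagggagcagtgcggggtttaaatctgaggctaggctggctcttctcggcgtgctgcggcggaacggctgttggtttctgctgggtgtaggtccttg
GABPA: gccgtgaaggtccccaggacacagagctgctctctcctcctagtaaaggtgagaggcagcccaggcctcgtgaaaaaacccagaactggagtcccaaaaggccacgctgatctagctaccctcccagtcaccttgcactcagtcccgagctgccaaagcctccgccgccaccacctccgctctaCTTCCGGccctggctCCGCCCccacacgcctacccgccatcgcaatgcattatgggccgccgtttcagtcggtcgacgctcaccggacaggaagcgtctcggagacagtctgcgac
WSB1: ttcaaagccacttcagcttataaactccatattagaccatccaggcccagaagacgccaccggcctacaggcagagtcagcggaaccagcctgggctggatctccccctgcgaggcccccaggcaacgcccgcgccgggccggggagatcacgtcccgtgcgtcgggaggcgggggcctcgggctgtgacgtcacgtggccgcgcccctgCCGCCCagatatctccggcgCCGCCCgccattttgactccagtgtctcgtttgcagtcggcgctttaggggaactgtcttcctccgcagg
TAL1: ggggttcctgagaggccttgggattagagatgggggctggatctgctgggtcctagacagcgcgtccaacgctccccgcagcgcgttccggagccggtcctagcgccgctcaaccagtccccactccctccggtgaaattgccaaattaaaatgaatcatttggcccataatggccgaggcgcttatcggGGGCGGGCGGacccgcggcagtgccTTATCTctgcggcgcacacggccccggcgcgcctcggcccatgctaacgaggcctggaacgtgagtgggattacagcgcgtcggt

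The ARHGEF33 window was 31% G and C and held none of the 4 motifs, whereas its contact partner DHX57 was 63.3% G and C and held a GC box, a CCAAT box and an ETS site. The CCNB1 window held 1 GC box, 2 CCAAT boxes and 1 ETS site. GABPA, which encodes the DNA-binding subunit of an ETS-family factor, had 1 ETS site and 1 GC box in its own window. The WSB1 window held 2 GC boxes, and that of TAL1 held 2 overlapping GC boxes and 1 GATA site. Such matches describe letters in these windows and show no binding.

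Across the listed bait fragments, promoters with a short contact differed modestly in sequence from those without. A GC box stood in 65.1% of 4837 promoter windows on bait fragments with a short contact and in 61.4% of 7548 windows on bait fragments without one, a difference of 3.63 percentage points (1.89 to 5.36). The ETS site stood in 17.4% and 13.6% of these windows, a difference of 3.84 points (2.53 to 5.17). The GATA site was less frequent on fragments with a short contact, at 9.26% against 10.9%, a difference of -1.64 points (-2.71 to -0.55). The CCAAT box did not separate them, at 34.4% and 34.2% (difference 0.15 points, -1.56 to 1.87). Of all 35097 RefSeq windows, 44.9% held a GC box, 34.6% a CCAAT box, 16.3% a GATA site and 10.3% an ETS site. The median G and C content was 64.3% on fragments with a short contact, 63.7% on those without and 58.7% over all windows. Bait fragments with a short contact also had denser surroundings. Within 50 kb they had a mean of 1.95 other baits and 2.95 genes, against 0.884 and 1.64 for bait fragments without one. Windows on the same fragment were counted separately. Any part of base content or of these surroundings in the motif differences was not tested.

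Short contacts were about equally many in both libraries. The ponatinib list held 6666 and the DMSO list 6511, a ratio of 1.02 (0.989 to 1.06). Over the same chromosomes, contacts of 50 kb or more numbered 71249 in ponatinib and 65113 in DMSO, a ratio of 1.09 (1.08 to 1.11). Short contacts thus made up 8.56% of the same-chromosome ponatinib list (8.36 to 8.75%) and 9.09% of the DMSO list (8.88 to 9.30%), which differ by -0.54 percentage points (-0.82 to -0.25). The order of the short numbers depended on how the lists were trimmed. When both lists were cut to equal length by score the ratio was 0.935 (0.903 to 0.968), and at scores of at least 7 it was 1.06 (1.01 to 1.13).

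The ratio was lowest at the shortest distances and highest at the longest. Contacts under 10 kb numbered 766 in ponatinib and 832 in DMSO, a ratio of 0.921 (0.834 to 1.02). In the 4 bins of 10 kb from 10 to 50 kb the ratio lay between 1.02 and 1.05, and every interval held 1. At 50 to 100 kb it was 1.05 (1.01 to 1.08), and at 1 Mb or more it was 1.25 (1.19 to 1.31). On 20 chromosomes the ratio of short contacts ran from 0.938 to 1.14; it was above 1 on 12, equal to 1 on 1 and below 1 on 7. The interval held 1 on each of the 20. The greater length of the ponatinib list was thus not spread evenly over distances.

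**Figure D1:**
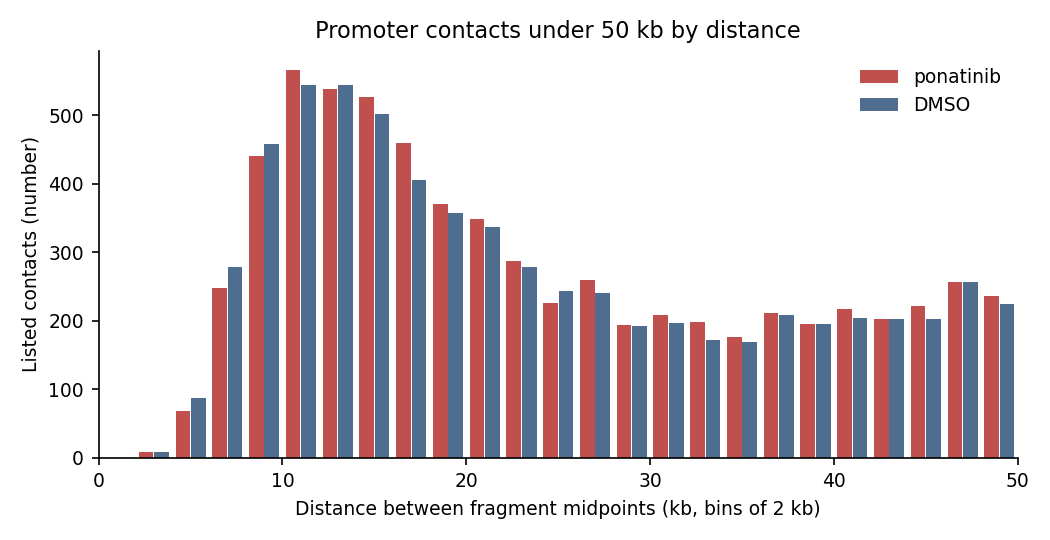
Number of listed contacts (vertical axis) in bins of 2 kb of distance between fragment midpoints (horizontal axis, kb), with ponatinib bars left of DMSO bars. Both libraries peak between 10 and 16 kb, with 566 ponatinib and 545 DMSO contacts at 10 to 12 kb, and run side by side up to 50 kb.

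The shortest distances were thinly filled in both lists. From 0 to 2 kb there were 0 contacts in either library, and from 2 to 4 kb there were 8 in ponatinib and 9 in DMSO. The median distance was 20.6 kb in ponatinib (20.2 to 21.1 kb) and 20.4 kb in DMSO (19.9 to 20.9 kb). No listed pair in either library joined touching fragments, and the smallest gap between the fragments of a short contact was 14 bases. The median gap was 10.9 kb. Bait fragments with a short contact had a median width of 8.32 kb, against 5.96 kb for bait fragments without one, and their partners that were not baits had a median width of 3.18 kb.

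Short contacts were shared between the libraries more often than contacts of 50 to 500 kb or of 500 kb or more. Of the union of short contacts, 4325 were listed in both libraries, which is 48.9% (47.8 to 49.9%). They were 64.9% of the ponatinib short list (63.7 to 66.0%) and 66.4% of the DMSO short list (65.3 to 67.6%). In ponatinib only there were 2341 and in DMSO only 2186. Of the union of contacts of 50 to 500 kb, 29.1% were shared, so the short contacts exceeded them by 19.8 percentage points (18.7 to 20.9). Of those of 500 kb or more 14.4% were shared, a difference of 34.4 points (33.3 to 35.5).

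Sharing fell off within the short range as well. It was 56.8% under 10 kb (53.7 to 59.9%), 56.3% at 10 to 20 kb, 48.3% at 20 to 30 kb, 37.2% at 30 to 40 kb (34.7 to 39.8%) and 40.3% at 40 to 50 kb (37.8 to 42.7%). The 50 to 100 kb bin had 38.1%, so contacts of 30 to 50 kb were shared about as often as those just beyond the limit. The higher sharing of the short contacts therefore lay mainly under 30 kb.

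**Figure D2:**
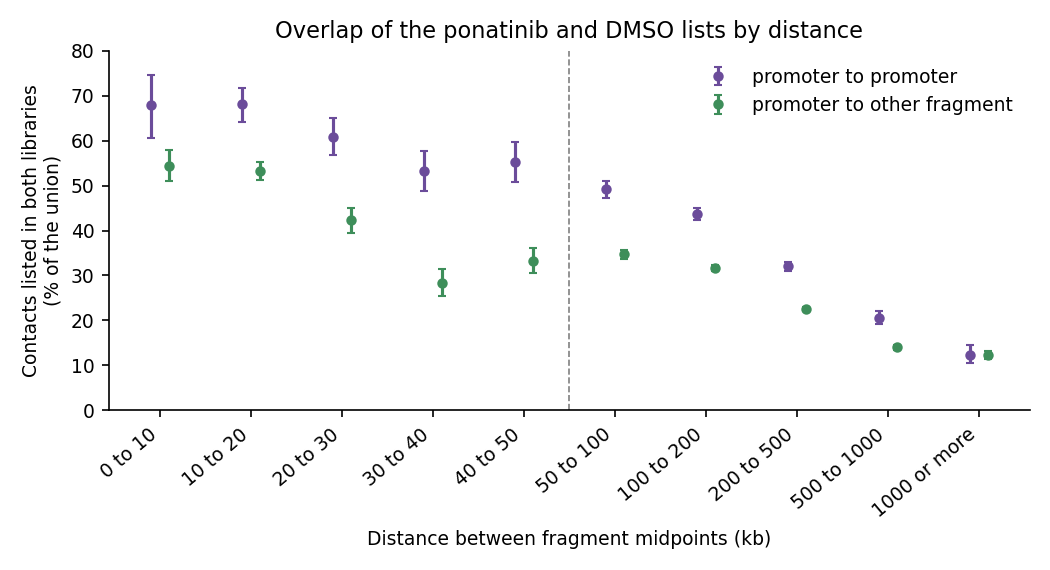
Percent of contacts in either list that were in both (vertical axis) by distance between fragment midpoints (horizontal axis, kb), for promoter-to-promoter contacts and for contacts of a promoter with another fragment. Points are shares and bars are 95% Clopper-Pearson intervals; the dashed line marks 50 kb. Promoter-to-promoter contacts lie above the others in every bin up to 1000 kb, and at 1000 kb or more the shares are 12.4% for both kinds.

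Promoter-to-promoter contacts, which have a bait fragment at both ends, were a larger part of short contacts taken as a whole than of longer ones. They numbered 1900 of the ponatinib short contacts (28.5%, 27.4 to 29.6%) and 1913 of the DMSO short contacts (29.4%, 28.3 to 30.5%). Of contacts of 50 kb or more they were 19.7% in ponatinib and 20.0% in DMSO, so the short contacts exceeded these by 8.81 points (7.70 to 9.94) in ponatinib and by 9.35 points (8.22 to 10.5) in DMSO. Between the libraries the share differed by -0.88 points (-2.43 to 0.67), an interval that holds 0. Over both lists together, the share was 17.8% under 10 kb and 20.3% at 10 to 20 kb. It was 32.3% at 20 to 30 kb, 35.5% at 30 to 40 kb and 31.6% at 40 to 50 kb, against 23.1% at 50 to 100 kb. The larger part thus lay at 20 to 50 kb and was not seen under 10 kb. Of 9158 pairs of listed bait fragments under 50 kb apart that do not touch, 25.9% were listed as a contact in at least 1 library (25.04 to 26.84%).

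Promoter-to-promoter contacts were also shared more often. Of 2375 in the union 60.5% were in both lists (58.5 to 62.5%), and of 6477 contacts with another fragment 44.6% were (43.4 to 45.8%). The difference was 15.97 percentage points (13.7 to 18.3). It was also seen within each of the 5 bins under 50 kb, with 68.0% against 54.4% under 10 kb and 55.3% against 33.3% at 40 to 50 kb.

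The authors' score is their own value for each contact and has a minimum of 5 in both lists. Its scale may differ between the lists, so scores set side by side describe the lists and not the strength of a contact. The median score of short contacts was 6.33 in the ponatinib list (6.28 to 6.41) and 6.30 in the DMSO list (6.26 to 6.36). High scores were rarer among short contacts than among longer ones. A score of at least 10 was held by 10.7% of short contacts in ponatinib (9.99 to 11.5%), against 14.4% of longer ones. In DMSO it was held by 10.6% of short contacts (9.82 to 11.3%), against 12.9% of longer ones.

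Contacts with a higher score were more often found in the other library. In the ponatinib list 43.9% of short contacts of score 5 to under 6 were shared, 63.8% of those of 6 to under 7, 85.4% of those of 7 to under 10 and 95.4% of those of 10 to under 20. In the DMSO list the same classes had 45.0%, 67.0%, 87.1% and 98.4%. At scores of 20 or more 59 of 66 ponatinib contacts were shared (89.4%, 79.4 to 95.6%), and 55 of 56 DMSO contacts (98.2%, 90.4 to 100.0%). Shared contacts had a median score of 7.05 in the ponatinib list and 6.95 in the DMSO list. Contacts in ponatinib only had a median of 5.65, and those in DMSO only 5.62. Contacts found in 1 library alone thus lay mostly near the minimum score of the lists. Of the 4325 shared contacts, 2220 had the higher score in ponatinib (51.3%, 49.8 to 52.8%), and 11 had equal scores.

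**Figure D3:**
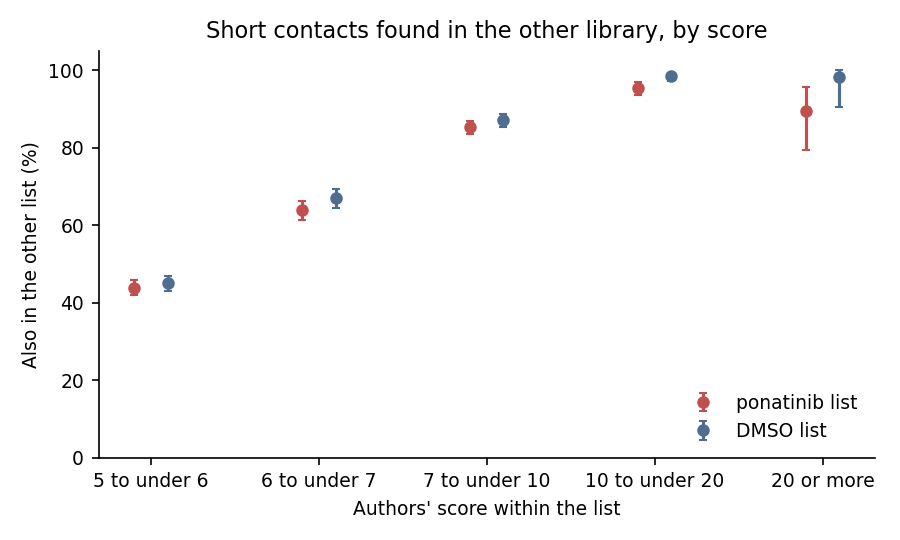
Percent of short contacts that were also in the other list (vertical axis) by class of the authors' score within the list (horizontal axis), for the ponatinib list and the DMSO list. Points are shares and bars are 95% Clopper-Pearson intervals. About 44% to 45% were shared at scores of 5 to under 6, and 95.4% in ponatinib and 98.4% in DMSO at 10 to under 20.

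The highest scoring short contact of both lists joined the promoter fragment of DHX57, which encodes a putative RNA helicase, and MORN2 (chr2:38873753-38881581) to that of ARHGEF33, a guanine nucleotide exchange factor gene (chr2:38886021-38893531). It scored 130.24 in the ponatinib list and 100.96 in the DMSO list over a distance of 12.1 kb. These are the fragments whose DHX57 and ARHGEF33 promoters are printed above. The next shared contacts by rank joined a fragment without a placed gene to that of HMGN1, a nucleosome-binding protein gene, at 87.61 in ponatinib and 36.74 in DMSO. The fragment of TMEM179B and TMEM223 contacted that of NXF1, the main messenger RNA export receptor gene, at 87.19 in ponatinib and 34.94 in DMSO. The other 2 lay in a histone gene cluster on chromosome 6. The fragment of H2AC15 and H2BC15 contacted that of H2AC17 and H3C12 at 47.41 in ponatinib and 37.11 in DMSO. It also contacted the H4C12 fragment, at 34.79 in ponatinib and 35.35 in DMSO. All 5 of these contacts joined bait fragments at both ends, and 4 of the 5 ranked within the first 5 of both lists.

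The 5 highest scoring contacts found in ponatinib only joined bait fragments too, and each of the 5 had an end with 0 DMSO contacts at any distance. The fragment of GTF3C2, a subunit gene of the transcription factor TFIIIC, had contacts of score 35.35 and 30.67. Its fragment had 17 contacts at any distance in ponatinib and 0 in DMSO. PTGIR, the prostacyclin receptor gene, contacted GNG8, a G protein subunit gene, at 28.86, and had 4 contacts at any distance in ponatinib and 0 in DMSO. GSTK1, a glutathione transferase gene, had a contact of 28.82, with 6 contacts at any distance in ponatinib and 0 in DMSO. GNG8 also contacted DACT3 at 24.18, and the DACT3 fragment had 7 in ponatinib and 0 in DMSO. So these contacts went with baits absent from the DMSO list as a whole, and the part of those baits in the scores was not tested. Over all short contacts, 94 of 2341 ponatinib-only contacts had no bait fragment in the DMSO list. Likewise, 88 of 2186 DMSO-only contacts had no bait fragment in the ponatinib list. The 5 contacts above are not among these 94, since the other end of each was in the DMSO list. Contacts that join an absent bait fragment to a listed bait fragment were not counted, so how common they are is unknown.

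The highest scoring contacts in DMSO only had lower scores. The first, at 20.28, joined the fragment of KLRB1, a natural killer cell receptor gene, to a bait fragment that had 0 contacts in ponatinib and 2 in DMSO. The next scored 14.81, 13.67, 12.57 and 12.51, and involved AKAIN1 and RTL1 among placed genes.

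Bait fragments differed widely in how many short contacts they had. Of 16547 listed bait fragments off chromosomes 9, 13 and 22, 5483 had at least 1 (33.1%, 32.4 to 33.9%). Of these 3013 had 1 short contact, 451 had at least 5, 50 had at least 10, and the highest number was 22. Fragments joined by short contacts formed 2713 chains in ponatinib and 2707 in DMSO. Chains of 2 fragments made up 53.5% in ponatinib (51.6 to 55.4%) and 53.7% in DMSO (51.8 to 55.6%). Chains of 10 or more fragments numbered 76 in ponatinib and 81 in DMSO, and the longest held 26 fragments in each.

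Partners that were not baits lay most often in the gene of the promoter they contacted. Over fragments with a placed gene, 47.9% of 3572 such ponatinib contacts ended in the promoter's own gene, against 49.0% of 3485 DMSO contacts. A further 27.9% in ponatinib and 26.6% in DMSO ended in no gene, 18.4% in ponatinib and 19.1% in DMSO inside another gene, and 5.82% in ponatinib and 5.39% in DMSO at the end of another gene. For each of these 4 shares the interval of the difference between the libraries held 0; the difference for the own gene was -1.05 points (-3.38 to 1.28). Where the strand was known, 58.7% of short partners in ponatinib (56.6 to 60.7%) and 58.1% in DMSO (56.0 to 60.2%) lay downstream of the promoter. At 50 to 500 kb these shares were 53.3% in ponatinib and 53.0% in DMSO, so short partners exceeded them by 5.40 points (3.25 to 7.52) in ponatinib and 5.11 points (2.93 to 7.26) in DMSO. At 500 kb or more they were 49.9% in ponatinib and 49.5% in DMSO. Downstream partners lay in the own gene in 76.1% of 1820 cases, and upstream ones in no gene in 54.2% of 1298 and inside another gene in 34.1%. Downstream partners were thus mostly in the gene body, and upstream ones more often outside genes than in one. The same shares over all fragments within 50 kb of these promoters were not counted. No excess over what position alone would give can therefore be read from them.

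Short contacts were then counted per protein-coding gene. Of 12444 genes placed on a listed bait fragment, 4855 had at least 1 short contact (39.0%, 38.2 to 39.9%). Their numbers were higher in ponatinib for 1479 genes (30.5%), lower for 1477 (30.4%) and equal for 1899. Among 1044 genes with at least 5 short contacts over both lists, the ponatinib number was 2-fold or more above the DMSO number for 55 (5.27%). It was 2-fold or more below it for 33 (3.16%), where fold is the ratio of the numbers after adding 1. Genes that share a fragment have the same contacts, and these calls came from 49 and 31 distinct sets of fragments. The median log2 ratio was 0. In lists of equal length the counts were 41 with more and 55 with fewer, which turns the excess. For 8 of the 1044 genes the share of contacts in ponatinib had an interval that left out 50%. In this share and in the minimum of 5, a shared contact counted once in each list. Such double counting draws the share towards 50%, so the count of 8 depends on it.

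**Figure D4:**
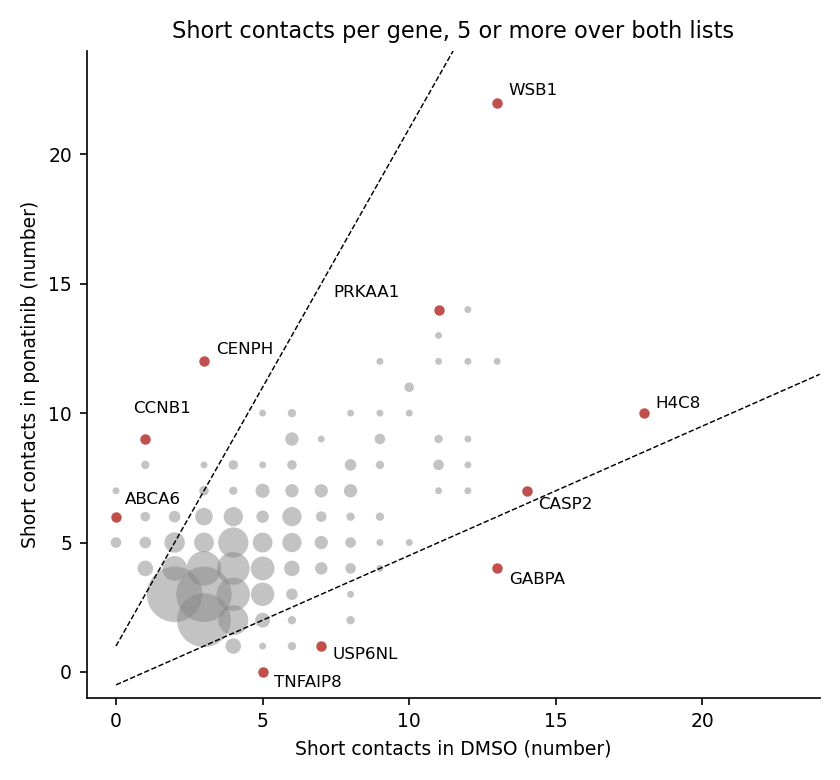
Short contacts per gene in ponatinib (vertical axis, number) against DMSO (horizontal axis, number) for the 1044 genes with 5 or more over both lists. The area of a grey point grows with the number of genes at that position, red points are named genes, and genes on or beyond a dashed line differ by 2-fold or more after adding 1. CENPH, CCNB1 and ABCA6 lie above the upper line, and GABPA, USP6NL and TNFAIP8 below the lower one.

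WSB1, which encodes a substrate-recognition subunit of a ubiquitin ligase, had more short contacts than any other gene, with 22 in ponatinib and 13 in DMSO. All 13 DMSO contacts were also in the ponatinib list. They ran on both sides of its fragment (chr17:27289236-27295030), from 46.6 kb upstream to 48.4 kb downstream, and no partner was in another coding gene. The highest score was 17.98 in ponatinib and 13.95 in DMSO, and the 9 contacts found in ponatinib only scored between 5.25 and 9.12. At scores of at least 7 WSB1 had 14 contacts in ponatinib and 8 in DMSO. At any distance it had 79 in ponatinib and 45 in DMSO. The short contacts of WSB1 did not reach a 2-fold difference after adding 1, with a log2 ratio of 0.716.

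The neighbouring genes CENPH and CCNB1 on chromosome 5 had among the largest gains in number. CENPH, a kinetochore protein gene, had 12 in ponatinib and 3 in DMSO, and all 3 were shared. CCNB1, the mitotic cyclin B1 gene, had 9 in ponatinib and 1 in DMSO, and the DMSO contact was shared. Counting it once in each list, 90% of the CCNB1 listings were in ponatinib (55.5 to 99.7%). The contact of CCNB1 in both lists ended inside CCNB1 itself and scored 14.29 in ponatinib and 9.38 in DMSO. The CCNB1 fragment (chr5:69159346-69169607) and the CENPH fragment (chr5:69177723-69190157) were joined to each other in ponatinib only, with a score of 12.95. The other 7 CCNB1 contacts in ponatinib only scored between 5.08 and 8.35 and ended in SLC30A5, in CENPH or in no gene. At any distance the CCNB1 fragment had 14 contacts in ponatinib and 3 in DMSO, and the CENPH fragment 29 in ponatinib and 4 in DMSO, so the gain was not limited to short contacts. At scores of at least 10 CCNB1 had 2 in ponatinib and 0 in DMSO.

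The other genes with large gains had most or all of their contacts in ponatinib only. ABCA6, a lipid transporter family gene, had 6 in ponatinib and 0 in DMSO, with scores between 5.02 and 6.49, and none at scores of at least 7. RNF43, a ubiquitin ligase gene that limits Wnt receptors, had 5 in ponatinib and 0 in DMSO, with scores between 5.04 and 5.86. ATF7, a basic leucine zipper factor gene, had 5 in ponatinib and 0 in DMSO, with scores up to 7.15. AGPAT5, an acyltransferase gene of phospholipid synthesis, had 7 in ponatinib and 0 in DMSO, and the fragment of PURG and WRN, the Werner syndrome helicase gene, had 8 in ponatinib and 1 in DMSO. The AGPAT5 contacts scored 5.01 to 9.06 in ponatinib and those of PURG and WRN 5.1 to 8.69. Most scores of these genes lay below 7, where contacts were least often found in the other library.

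GABPA and ATP5PF, an ATP synthase subunit gene, lie on the same fragment (chr21:25730027-25736490) and had the largest loss, with 4 in ponatinib and 13 in DMSO. All 4 ponatinib contacts were also in DMSO. Counting these once in each list, 23.5% of the listings were in ponatinib (6.81 to 49.9%). The genes run in opposite directions from it. The 9 in DMSO only lay on the GABPA side, 6 of them inside GABPA, and scored between 5.6 and 7.31. The 3 contacts on the ATP5PF side were in both lists, at 6.13 to 7.22 in ponatinib and 7.44 to 9.61 in DMSO. At scores of at least 7 there were 1 in ponatinib and 5 in DMSO.

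H4C8, a histone H4 gene, had 10 in ponatinib and 18 in DMSO, and all 10 were shared. Its highest scoring contact was with the H2BC9 fragment, at 15.26 in ponatinib and 18.07 in DMSO, and others joined it to the fragments of H4C6, H4C7, H3C7 and of H2BC10 and H3C8. These contacts with other histone gene fragments were in both lists, and the 8 found in DMSO only ended on fragments without a placed gene. CASP2, a caspase gene, and TMEM139 share a fragment with 7 in ponatinib and 14 in DMSO, all 7 shared, and the highest score was 10.60 in ponatinib and 19.05 in DMSO. All 7 shared contacts had the lower score in the ponatinib list, on scales that may differ between the lists. Neither H4C8 nor CASP2 reached a 2-fold difference after adding 1.

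Smaller losses were at USP6NL, which encodes an activator of RAB GTPase hydrolysis, with 1 in ponatinib and 7 in DMSO, all inside USP6NL. The fragment of ISG20L2 and METTL25B had 2 in ponatinib and 8 in DMSO. HDAC1, a histone deacetylase gene, had 0 in ponatinib and 5 in DMSO, with partners that included the promoter fragments of LCK, FAM167B and MARCKSL1 at DMSO scores of 5.75 to 6.74. TNFAIP8, a TNF-induced regulator gene of cell death, had 0 in ponatinib and 5 in DMSO, at scores of 6.15 to 7.32. Most scores of these genes also lay below 7. At scores of at least 7 USP6NL had 0 in ponatinib and 2 in DMSO. The fragment of ISG20L2 and METTL25B had 0 in ponatinib and 1 in DMSO, as did TNFAIP8, and HDAC1 had 0 in either.

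**Figure D5:**
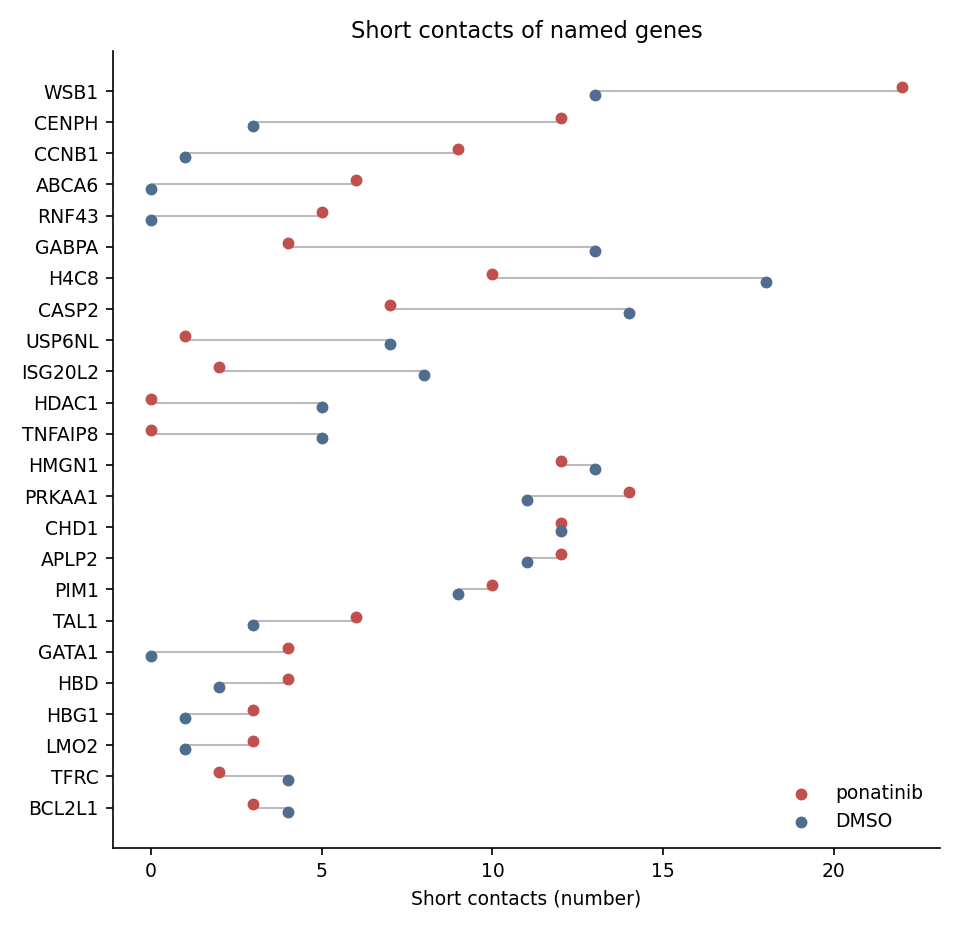
Number of short contacts (horizontal axis) of named genes (rows) in ponatinib (red, upper point) and DMSO (blue, lower point). WSB1 had 22 in ponatinib and 13 in DMSO, CENPH 12 in ponatinib and 3 in DMSO, CCNB1 9 in ponatinib and 1 in DMSO, GABPA 4 in ponatinib and 13 in DMSO and H4C8 10 in ponatinib and 18 in DMSO.

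Other genes with many short contacts had nearly equal numbers. CHD1, a chromatin remodelling factor gene, had 12 in each library, 10 of them shared. HMGN1 had 12 in ponatinib and 13 in DMSO with 12 shared, and PRKAA1, a catalytic subunit gene of AMP-activated kinase, had 14 in ponatinib and 11 in DMSO with 11 shared. LYN, a SRC-family kinase gene, had 14 in ponatinib and 12 in DMSO with 11 shared. SAMSN1 had 13 in ponatinib and 11 in DMSO with 8 shared, APLP2 had 12 in ponatinib and 11 in DMSO with 7 shared, and the fragment of H2BC10 and H3C8 had 11 in ponatinib and 10 in DMSO with 9 shared.

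Among the erythroid genes, contacts at the beta-globin cluster were few. HBD, the delta-globin gene, had 4 in ponatinib and 2 in DMSO, and HBG1, a fetal globin gene, had 3 in ponatinib and 1 in DMSO. HBB, the adult gene, had 0 in either. HBD and HBG1 contacted each other in both lists, at 5.29 in ponatinib and 5.25 in DMSO. The other partners lay between 5279020 and 5292119 on chromosome 11 and held no coding gene. HBD contacted chr11:5286158-5289466 at 9.08 in ponatinib and 6.07 in DMSO, and HBG1 contacted this fragment at 9.22 in ponatinib only. HBG1 has a near-identical neighbour, HBG2, so its reads are uncertain.

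TAL1 had 6 short contacts in ponatinib and 3 in DMSO, and all 3 were shared. The highest scoring was with a fragment just downstream in TAL1 itself (chr1:47222276-47227314), at 14.18 in ponatinib and 16.06 in DMSO. At scores of at least 7 it had 3 in each. GATA1, the master erythroid factor gene, had 4 in ponatinib and 0 in DMSO. Of these 3 ended inside GATA1 and 1 at the HDAC6 promoter fragment, at scores between 5.01 and 6.73, and at scores of at least 7 there were 0 in either. LMO2, a partner of TAL1 and GATA1 proteins, had 3 in ponatinib and 1 in DMSO, at scores up to 5.48 in ponatinib. KLF1 had 1 in ponatinib and 1 in DMSO, with the SYCE2 fragment. TFRC, the transferrin receptor gene, had 2 in ponatinib and 4 in DMSO, and ALAS2, the gene of the first enzyme of haem synthesis in red cells, had 1 in ponatinib and 3 in DMSO.

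The 15 gene lists had no ratio whose interval left out 1. These intervals ignore that shared contacts are the same pair in both lists, so they cannot show that the lists are equal. The erythroid list had 45 short contacts in ponatinib and 36 in DMSO, a ratio of 1.25 (0.789 to 1.99), and a median log2 ratio of 0.11 against 0 over all genes. Of its 16 members with a short contact 8 had more in ponatinib, 4 fewer and 4 equal numbers, beside 30.5% more and 30.4% fewer over all genes with a short contact. Megakaryocyte genes had 10 in ponatinib and 4 in DMSO (ratio 2.50, 0.721 to 10.9), with ITGB3, a platelet integrin gene, at 3 in ponatinib and 0 in DMSO and ITGA2B, its partner subunit, at 2 in ponatinib and 0 in DMSO. PLEK, a platelet signalling protein gene, had 2 in ponatinib and 3 in DMSO, and GP1BA, a platelet receptor gene, had 0 in ponatinib and 1 in DMSO. Of the 7 megakaryocyte genes with a short contact 5 had more in ponatinib and 2 fewer. Granulocyte and monocyte genes had 17 in ponatinib and 15 in DMSO, with SPI1, the PU.1 factor gene, at 4 in ponatinib and 3 in DMSO. Lymphoid genes had 7 in ponatinib and 10 in DMSO, and liver and neuron genes 4 in ponatinib and 2 in DMSO. Short contacts are no measure of expression, so these lists name no cell type.

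For pathways downstream of BCR-ABL1 the numbers were small and the intervals wide. STAT5 and JAK pathway genes had 33 in ponatinib and 29 in DMSO (ratio 1.14, 0.670 to 1.94), with PIM1, a kinase gene induced by STAT5, at 10 in ponatinib and 9 in DMSO with 7 shared. ID1 had 7 in ponatinib and 4 in DMSO, BCL2L1, an anti-apoptotic gene, had 3 in ponatinib and 4 in DMSO, and CISH, a feedback inhibitor, had 2 in ponatinib and 2 in DMSO. At scores of at least 7 PIM1 had 3 in ponatinib and 5 in DMSO. MYC, SOCS2, CCND2, CCND3, CDKN1B, DUSP6 and CTCF had bait fragments but 0 short contacts in either list. MYC had 52 contacts at any distance in ponatinib and 34 in DMSO, and SOCS2 had 51 in ponatinib and 46 in DMSO, so these fragments were listed at longer range only. ERK feedback genes had 12 in ponatinib and 9 in DMSO (ratio 1.33, 0.516 to 3.58), and PI3K and mTOR genes 7 in ponatinib and 6 in DMSO (ratio 1.17, 0.336 to 4.20).

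Cell cycle genes had 33 in ponatinib and 28 in DMSO (ratio 1.18, 0.691 to 2.02), of which CCNB1 supplied 9 in ponatinib and 1 in DMSO. Of 18 members 3 had more in ponatinib, 4 fewer and 11 equal numbers, beside the same 30.5% and 30.4% over all genes. CDK2 had 3 in ponatinib and 5 in DMSO, and CDK6 had 1 in ponatinib and 1 in DMSO. Cell death genes had 27 in ponatinib and 24 in DMSO. Among them BMF, a pro-apoptotic gene, had 4 in ponatinib and 2 in DMSO with 0 shared, and APAF1, the apoptosome gene, had 4 in ponatinib and 8 in DMSO with 4 shared. BCL2L11, another pro-apoptotic gene, had 1 in ponatinib and 1 in DMSO.

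Cholesterol and fatty acid synthesis genes had 26 in ponatinib and 16 in DMSO, with 14 shared (ratio 1.62, 0.839 to 3.24). Of 11 members 8 had more and 2 fewer, beside 30.5% and 30.4% over all genes with a short contact. INSIG1, which retains the sterol sensor in the endoplasmic reticulum, had 4 in ponatinib and 1 in DMSO and was 1 of the 55 genes with 2-fold more. In lists of equal length it had 3 in ponatinib and 1 in DMSO, below the minimum of 5, and at scores of at least 7 it had 0 in either. ELOVL6, a fatty acid elongase gene, had 6 in ponatinib and 4 in DMSO with 4 shared. FADS1 and FADS2, desaturase genes on 1 fragment, had 0 in ponatinib and 1 in DMSO. Glycolysis and hypoxia genes had 20 in each library, with HIF1A at 7 in ponatinib and 5 in DMSO and PKM at 1 in ponatinib and 3 in DMSO. GAPDH had 3 in ponatinib and 2 in DMSO.

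Histone genes were the list with short contacts at nearly all members. Of 59 placed members 55 had at least 1 (93.2%, 83.5 to 98.1%), beside 39.0% of all genes, and the list had 95 in ponatinib and 100 in DMSO with 73 shared (ratio 0.95, 0.710 to 1.27). Members lie in clusters and share contacts. H2AC16 had 6 in ponatinib and 2 in DMSO and H3C7 had 3 in ponatinib and 8 in DMSO, each 2-fold apart in opposite directions. At scores of at least 7 both had fewer than the minimum of 5. Ribosomal protein genes had 55 in each library over 31 of 58 members, with RPL23A and RPS19 at 5 in ponatinib and 2 in DMSO each and RPL11 at 0 in ponatinib and 3 in DMSO. Chromatin architecture genes had 16 in each.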

How the data were processed

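Promoter-capture Hi-C used HindIII, per the labels' protocols. For each library the authors deposited 1 list of fragment pairs with a score, which is 5 or more in both lists. Coordinates are hg38, per the submitters' processing notes. Aligner, caller and score definition were not given in the sources used here. Of the deposited lists that for ponatinib has 91306 lines and 91305 pairs, since 1 pair is listed in both orientations.

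A short contact is an unordered pair of fragments on 1 chromosome under 50 kb between midpoints, off chromosomes 9, 13 and 22. It is shared when the identical pair is in both lists. Protein-coding genes of the RefSeq table (GRCh38.p14, 20056 genes) were placed on listed bait fragments by any RefSeq start site (9951 of 12444 genes), or by either gene end where no start site was given (2493). NFE2, MCL1 and EGR1 had no placed fragment and were not analysed here. A gene was called different by number with at least 5 short contacts over both lists and a ratio, log2((ponatinib + 1)/(DMSO + 1)), of at least 2-fold. Towards this minimum a shared contact counted once in each list. Shares and ratios have Clopper-Pearson intervals, differences Newcombe intervals and medians order-statistic intervals, at 95%.

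The genes named are a chosen set of globin, erythroid and signalling genes, the 10 with most short contacts, the 10 that gained most, the 10 that lost most, those at the 5 highest scoring shared, ponatinib-only and DMSO-only contacts, and up to 2 gains and 2 losses per list. Genes named only as contact partners fall outside this rule. The members and the 15 lists (502 entries) were chosen with earlier results of these data known. The counting code was tested on simulated data. Python 3.11.15, pandas 2.3.3, scipy 1.17.1 and networkx 3.6.1 were used. Alternatives were other minimum scores, lists of equal length, other distance limits, edge distances, matching within 5 kb, all chromosomes, other minimum numbers and pseudocounts.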

Additional observations from a re-analysis of the deposited data

How the results depend on the processing

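Depth is unknown, and each group has 1 library, so the alternatives describe the lists only. Libraries could not be paired, because each treatment has 1 library. Intervals that pair the same contact across both lists were not computed. No library could be left out. Of the results that answer a comparison, 70 values stayed within the error of the reported value (counts of genes within 1.5 times) under an alternative and 22 moved. Of all these values 7 passed to the other side of no difference, and the reported interval of each held no difference. They were the ratio of short contacts in lists of equal length, the promoter-to-promoter difference (0.37 points at a score of 10 or more), and 5 shares of gene lists in ponatinib. The list shares were 44.4% for granulocyte and monocyte, 40% for ERK feedback and 52.7% for histone genes at 7 or more, and for cell death genes 40% at 10 or more and 48.9% in lists of equal length. The ratio of short contacts was 1.06 at scores of at least 7 and 0.935 in lists of equal length. The difference in the share of short contacts was -1.06 percentage points with a minimum score of 10. Of the ponatinib list, the share found in DMSO was 67.8% in lists of equal length, 70.8% under 25 kb and 81.6% with both ends matched within 5 kb. With a minimum score applied to both lists, this share was 63.7% at 7 and 63.6% at 10. There a contact below the minimum in DMSO counted as not shared, unlike in the shares by score class above. The median ponatinib score was 6.44 under 25 kb. Genes with 2-fold more numbered 11 at scores of at least 7, 2 at 10, 34 with ponatinib numbers scaled to the DMSO list length and 6 with a minimum of 10 contacts. Genes with 2-fold fewer numbered 16, 2 and 6 at the same scores and minimum, and 55 in lists of equal length. Fewer genes reach the minimum at higher scores, with 277 at 7 and 44 at 10. Megakaryocyte, PI3K and mTOR, and liver and neuron genes at scores of at least 7, and cholesterol and glycolysis genes at 10, had 100% of their contacts in ponatinib, on so few contacts that the intervals start at 2.5% or 15.8%. The cause of these moves was otherwise not tested. Leaving out neighbouring fragments changed nothing, since no listed pair touches. For single named genes 206 values stayed within the error of the reported share and 24 moved. Of all these values 16 passed to the other side of 50%, among them those of PIM1, BCL2L1, GAPDH and SPI1 at scores of 7 or more.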
